A study of Homo sapiens with 12 samples.

Results

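The genes described here encode the proteins that first carry a signal from an antigen or Fc receptor into a lymphocyte: the kinases LCK, FYN, ZAP70 and SYK, the adaptors LAT and LCP2 (SLP-76), the phospholipases PLCG1 and PLCG2, and the exchange factor VAV1. They were chosen by name as genes that act directly after an immunoreceptor tyrosine-based activation motif (ITAM), and all 9 were found among the 17589 genes of the table. RNA was sequenced from cells labelled in all libraries as YT, a human NK-like lymphoid line, after lentiviral infection. Each group had 3 libraries. CTRL cells carried eGFP. hnCD16 cells carried a high-affinity, non-cleavable CD16a, an Fc receptor, with its own cytoplasmic tail. In FR2 cells that tail was replaced by the signalling domains of DAP10 and CD3ζ, and in FR1 cells by those of 2B4, DAP10 and CD3ζ. According to the study's methods a constitutive hEF1A promoter drove the receptors, cells positive for eGFP were sorted and expanded, and the cells sequenced were not stimulated. No construct carries the sequence of a gene described here.

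In T cells and NK cells, Src family kinases such as LCK and FYN phosphorylate ITAM tyrosines in receptor chains such as CD3ζ. ZAP70 or its relative SYK then docks on the phosphorylated ITAM and phosphorylates the membrane adaptor LAT and the cytosolic adaptor LCP2. These scaffolds bring in PLCG1 or PLCG2, which cleave a membrane lipid into the messengers that raise calcium and activate protein kinase C, and VAV1, which activates Rac GTPases and so the actin cytoskeleton. CD16 signals by the same route through partner chains that hold ITAMs.

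The libraries held 17714566 to 18729019 counts. Across genes, libraries of CTRL and hnCD16 on one side and of FR1 and FR2 on the other stood apart: the correlation of log values was 0.997 to 0.999 within groups and 0.864 to 0.871 across that divide. Of 9423 genes with at least 100 counts in every CTRL and hnCD16 library, 274 (2.91%) had at most 3 counts in every FR1 and FR2 library, and 135 genes showed the reverse pattern. Cell type markers moved with the divide. Of 14 NK cell markers, 4 reached 1 CPM (a count scaled to library size) in every library of CTRL and of hnCD16, and 10 did so in every FR1 and FR2 library. Summed NK markers spanned 37.6 to 42.7 CPM for CTRL and 36.0 to 39.2 for hnCD16, but 4246 to 4441 for FR1 and 4099 to 4201 for FR2. GZMB and PRF1, which encode cytotoxic granule proteins, were at 0.716 ± 0.180 and 0.414 ± 0.140 CPM in hnCD16 and at 2779.7 ± 69.7 and 423 ± 23.4 in FR1, whereas NCR3, an activating receptor, went the other way, from 5.58 ± 0.189 CPM in hnCD16 to 0.825 ± 0.139 in FR1 and 0.131 ± 0.141 in FR2. Summed T cell markers, 10 of 13 listed, spanned 766 to 883 CPM for CTRL and 825 to 889 for hnCD16, but 136 to 141 for FR1 and 165 to 177 for FR2. CD28, a co-stimulatory receptor in that list, went the other way, from 3.09 ± 0.436 CPM in hnCD16 to 92.4 ± 1.56 in FR1 and 119 ± 6.15 in FR2, and so made up most of the sum there. Of the NK markers, KLRF1 was at 3 counts or fewer in every library of all groups, and TYROBP in every FR1 and FR2 library. The T cell markers CD3D, CD4, CD6, CD8A and CD8B were also at 3 counts or fewer in every FR1 and FR2 library. TRAC, TRBC1 and TRBC2, which encode constant parts of the T cell receptor, were not analysed here. Summed B cell markers, 7 of 10 listed, were 40.9 to 52.9 CPM over all libraries, but their members changed places: PAX5, a B cell transcription factor, was at 0.0717 ± 0.0621 CPM in hnCD16 and at 40.0 ± 2.13 and 46.3 ± 1.03 in FR1 and FR2, and VPREB1, a chain of the pre-B cell receptor, at 27.1 ± 1.90 in hnCD16 and at 0 counts in every FR1 and FR2 library. Summed myeloid markers were 3 to 10.6 CPM. Whether all libraries come from the line named on their labels was not tested. For every difference below between FR1 or FR2 and the other groups, the construct and this divide cannot be told apart, and in bulk RNA fewer cells of a type and less RNA per cell cannot be told apart either.

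LCK was at or near 0 in FR1 and FR2, and FYN and PLCG2 were several times higher there. ZAP70 and LCP2 were also higher, LAT was lower, PLCG1 and VAV1 differed by at most 1.48-fold, and SYK passed no test. Levels are given as TPM, a transcript abundance that is per length and so can be compared between genes. Differences are log2 fold changes of counts from edgeR after TMM scaling, a scaling of library sizes. A gene was called when it differed at least 2-fold, a log2 fold change of 1, with an adjusted p of at most 0.05 over the 13657 genes tested.

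**Figure D1:**
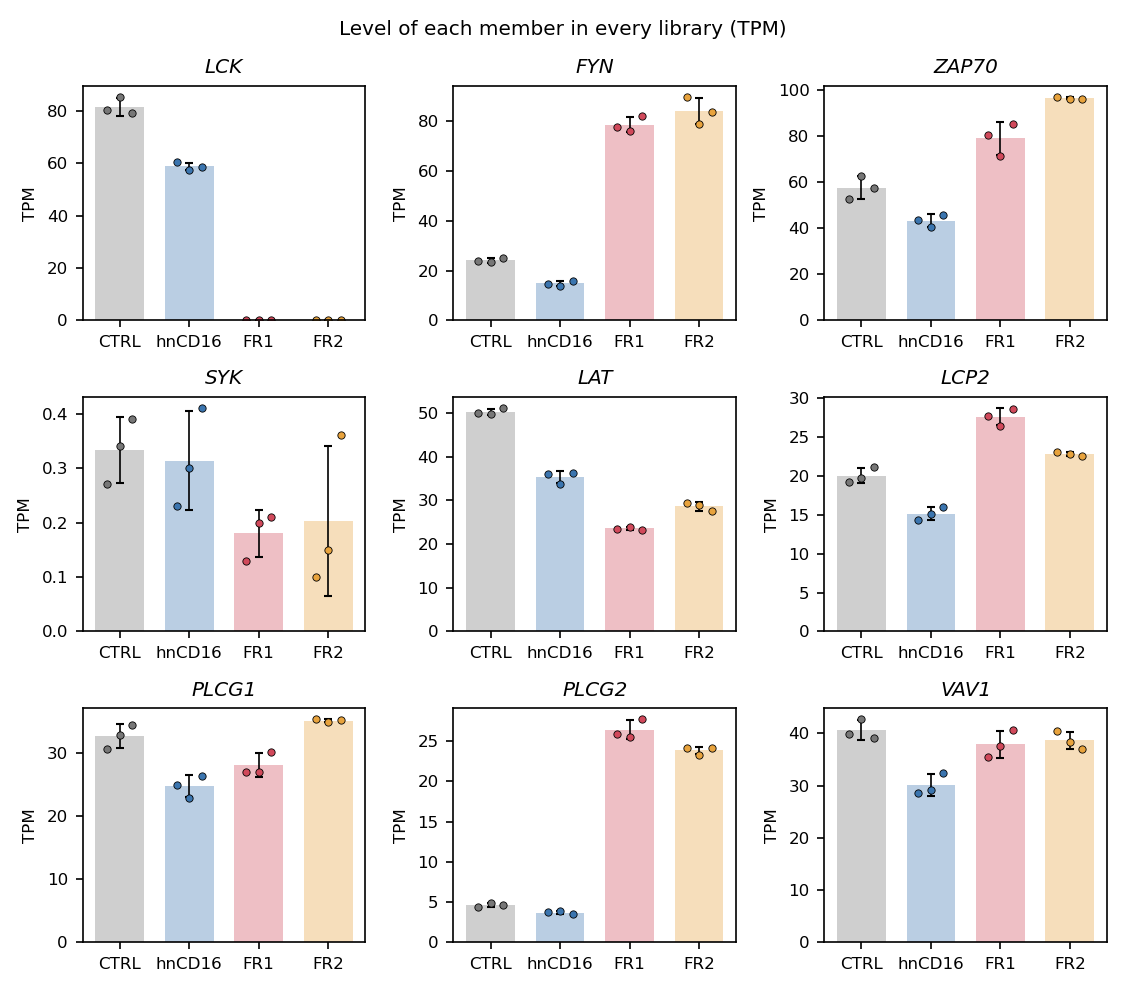
TPM of the 9 genes in each group, 1 panel per gene with its own axis from 0. Points are libraries, bars are group means and error bars are SD of 3 libraries. LCK is at 0.10 or below in FR1 and FR2, FYN and PLCG2 are high there, and the SYK axis ends below 1.

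LCK, the Src family kinase bound to the CD4 and CD8 tails in T cells and also used by NK cells, lies at chr1:32251244-32286165 on the plus strand (GRCh38, GENCODE v44). Its level was 80.2, 85.3 and 79.1 TPM in the CTRL libraries and 60.4, 57.5 and 58.5 in the hnCD16 libraries. It was 0, 0.05 and 0.05 TPM in FR1 and 0.10, 0 and 0.05 in FR2, which stands for 0, 1 and 1 counts in FR1 and 2, 0 and 1 in FR2. LCK was thus the highest of the 9 genes in CTRL and hnCD16 and the lowest by mean in FR1 and FR2, where its range overlapped that of SYK in FR2. The groups did not overlap across the divide. Against the limit that 3 counts per library allow, LCK was at least 396-fold lower in FR1 and at least 403-fold lower in FR2 than in hnCD16 (edgeR adjusted p = 1.98e-18 and 1.81e-18). Compared to CTRL it was at least 493-fold and at least 502-fold lower (edgeR adjusted p = 7.67e-19 and 7.41e-19). LCK passed the filter on low counts through CTRL and hnCD16 and is among the 274 genes present there and at the limit in FR1 and FR2. Both groups of the FR1 and FR2 comparison are under the limit, so no fold is given for it.

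FYN, the other Src family kinase of T cell and NK cell receptors, lies at chr6:111660332-111873452 on the minus strand. It measured 24.1, 23.3 and 25.3 TPM in CTRL and 14.6, 13.9 and 16.0 in hnCD16, against 77.9, 76.1 and 82.2 in FR1 and 89.7, 79.2 and 83.6 in FR2. Every FR1 and FR2 library was above every other library, while FR1 and FR2 overlapped. FYN rose 5.49-fold in FR1 and 5.83-fold in FR2 compared to hnCD16 (log2 fold change 2.46 ± 0.0548 and 2.54 ± 0.0547 SE, edgeR adjusted p = 2.66e-17 and 1.62e-17). Compared to CTRL the increase was 3.74-fold and 3.97-fold (edgeR adjusted p = 5.37e-16 and 2.72e-16). FR1 and FR2 differed by -0.08 on the log2 scale, with a 95% interval from -0.19 to 0.02.

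Because TPM is per length, LCK and FYN can be added. LCK and FYN together came to 106 ± 2.47 TPM in CTRL (SD, n = 3) and 73.6 ± 1.90 in hnCD16, and to 78.8 ± 3.12 in FR1 and 84.2 ± 5.37 in FR2. FYN made up 22.9% ± 1.37 of that sum in CTRL and 20.1% ± 1.12 in hnCD16, but 99.9% to 100% in the FR1 and FR2 libraries. The sum in FR1 and FR2 therefore lay between those of hnCD16 and CTRL, although it was mostly LCK in CTRL and hnCD16 and almost entirely FYN in FR1 and FR2. The sum was chosen after the values were seen. It leaves out other Src family kinases, of which LYN and FGR were higher in FR1 and FR2 than in hnCD16 and YES1 was lower. Whether FYN makes up for LCK was not tested. The shift in share did not overlap between groups in 3 against 3 libraries, where an exact two-sided permutation test cannot go below p = 0.1.

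**Figure D2:**
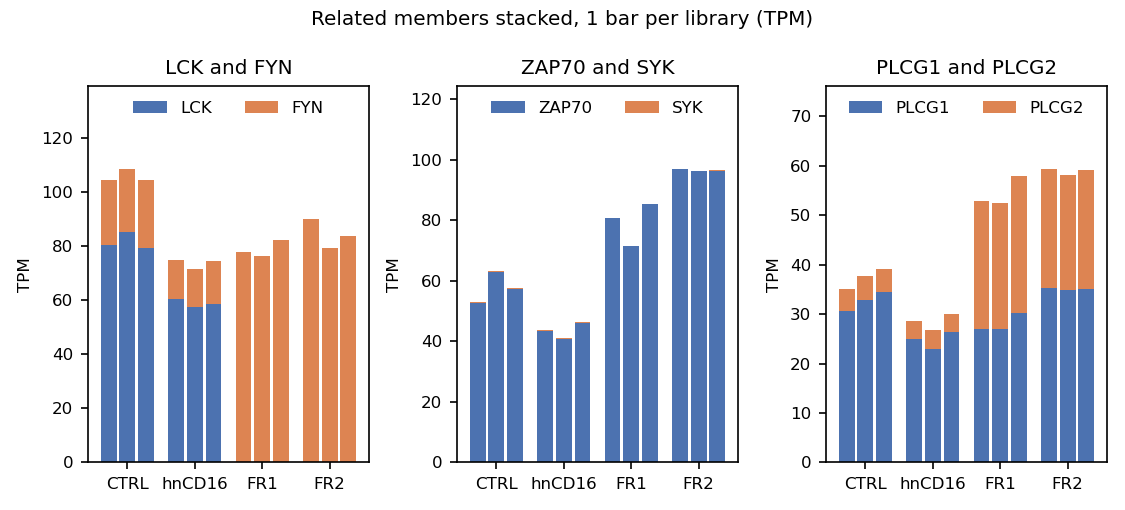
TPM of 3 pairs of related genes stacked, 1 bar per library in 4 groups of 3, with axes from 0. The kinase bars of LCK and FYN are mostly LCK in CTRL and hnCD16 and almost entirely FYN in FR1 and FR2. SYK is too low to be seen on ZAP70, and PLCG2 makes up 47.8% to 48.9% of the phospholipase bars in FR1 and 40.1% to 40.7% in FR2.

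The transcript table divides the FYN counts among 8 RefSeq transcripts, and the shares are given as a description. NM_153047, the form with the exon used in T cells (FynT), held 48.1% ± 4.54 and 52.5% ± 5.50 of FYN counts in CTRL and hnCD16, and 40% ± 1.47 and 41.1% ± 2.68 in FR1 and FR2. NM_002037, the form with the alternative exon found in brain (FynB), held 33% ± 2.47 in CTRL and 30% ± 7.05 in hnCD16, and 7.41% ± 0.341 in FR1 and 8.14% ± 0.873 in FR2. NM_153047 held a larger share than NM_002037 in every group. The largest differences in share between FR1 and hnCD16 were those of NM_002037, at -22.6 percentage points, and of a predicted transcript described next, at 22.5 points.

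XM_017010650, a predicted transcript, had 0 counts in all CTRL and hnCD16 libraries and 476 to 585 counts in FR1 and FR2, which was 22.5% ± 1.05 and 23.5% ± 1.39 of FYN. XM_017010652, another predicted transcript, held 13.5% ± 1.16 of FYN in FR1 and 9.83% ± 1.21 in FR2, against at most 9.70 counts in any CTRL or hnCD16 library. The level of NM_153047 was 10.4 ± 0.802 and 6.98 ± 0.808 TPM in CTRL and hnCD16, and 27.8 ± 0.283 and 30.6 ± 3.15 in FR1 and FR2. It was thus higher in FR1 and FR2 although its mean share was lower. NM_002037 was at 6.37 ± 0.639, 3.54 ± 0.728, 4.59 ± 0.171 and 5.40 ± 0.697 TPM in the same order. Which exon the predicted transcripts hold was not looked up, so the total levels of FynT and FynB are not known. Each of these shares rests on an estimate that splits reads among transcripts with shared exons. None of 98 comparisons of 18 transcripts in 6 of the genes passed adjustment (exact permutation, smallest adjusted p = 0.297), since 3 against 3 libraries allow no p below 0.1.

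**Figure D3:**
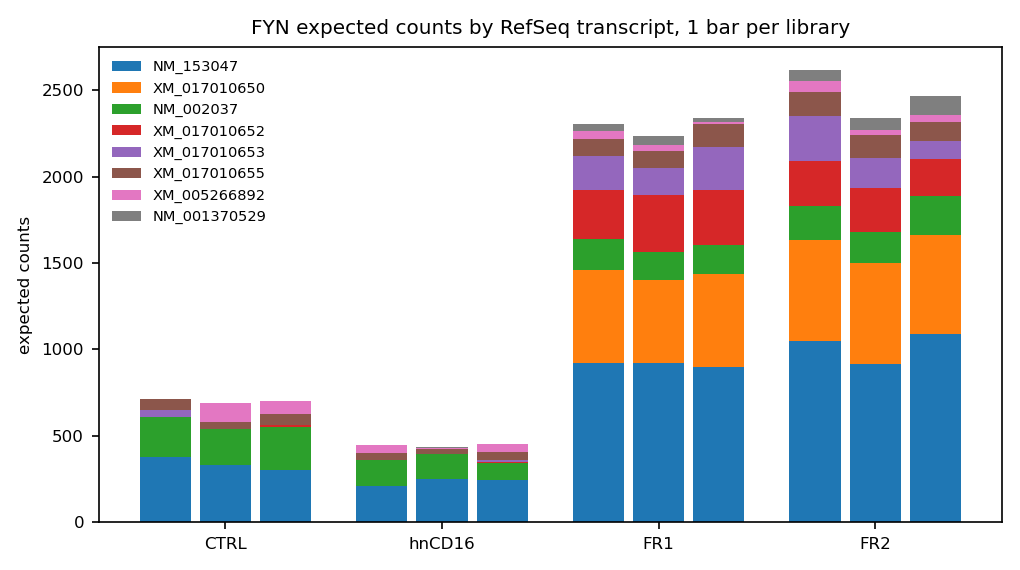
Expected counts of FYN divided among 8 RefSeq transcripts, 1 stacked bar per library, with the axis from 0. The FR1 and FR2 bars are taller, hold more NM_153047, and hold XM_017010650, which is at 0 in all CTRL and hnCD16 bars.

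PLCG2, the phospholipase used chiefly by B cells, NK cells and myeloid cells, lies at chr16:81779279-81962685 on the plus strand. It was at 4.43, 4.95 and 4.64 TPM in CTRL and 3.74, 3.86 and 3.53 in hnCD16, and at 25.9, 25.5 and 27.7 in FR1 and 24.1, 23.3 and 24.1 in FR2. None of the 4 groups overlapped its neighbour in order. PLCG2 rose 7.45-fold in FR1 and 6.68-fold in FR2 compared to hnCD16 (log2 fold change 2.90 ± 0.0605 and 2.74 ± 0.0605 SE, edgeR adjusted p = 1.14e-17 and 2.25e-17). Compared to CTRL it rose 6.56-fold and 5.89-fold (edgeR adjusted p = 1.94e-17 and 4.27e-17).

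PLCG1, the phospholipase that dominates in T cells, lies at chr20:41136960-41196801 on the plus strand. It was at 30.7, 32.8 and 34.5 TPM in CTRL and at 24.9, 22.9 and 26.4 in hnCD16, then 27.0, 27.0 and 30.2 in FR1 and 35.3, 34.9 and 35.2 in FR2. FR2 was thus the highest group and hnCD16 the lowest. PLCG1 was not called in any comparison, and its log2 fold change compared to hnCD16 was 0.24 in FR1 and 0.56 in FR2 (edgeR adjusted p = 0.000561 and 2.26e-08). Its exons overlap those of ZHX3 on the opposite strand, which had 536 to 911 counts. Whether counting used strand is not given in the sources used here, so the PLCG1 values are uncertain. Exons of PLCG1, PLCG2 and LAT also overlap those of non-coding genes or pseudogenes on the same strand, which were not among the genes counted. Whether reads from these entered the counts of PLCG1, PLCG2 or LAT was not tested.

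Together PLCG1 and PLCG2 came to 37.3 ± 2.04 and 28.4 ± 1.62 TPM in CTRL and hnCD16, and to 54.4 ± 3 and 58.9 ± 0.679 in FR1 and FR2. PLCG2 made up 12.5% ± 0.623 and 13.1% ± 1.33 of that sum in CTRL and hnCD16, and 48.5% ± 0.554 and 40.4% ± 0.336 in FR1 and FR2. Unlike the sum of LCK and FYN, this sum was higher in FR1 and FR2 than in both other groups, with no overlap. The log2 ratio of PLCG2 to PLCG1 was 2.61 higher in FR1 and 2.15 higher in FR2 than in hnCD16 (exact permutation p = 0.1 for each, the smallest possible, and 0.129 adjusted over 18 ratio comparisons).

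ZAP70, the kinase that binds phosphorylated ITAMs in T cells and NK cells, lies at chr2:97713576-97739862 on the plus strand. Its level was 52.8, 62.8 and 57.3 TPM in CTRL and 43.5, 40.7 and 46.0 in hnCD16, against 80.7, 71.4 and 85.3 in FR1 and 97.0, 96.1 and 96.2 in FR2. The 4 groups did not overlap, with FR2 highest, then FR1, CTRL and hnCD16. ZAP70 rose 2.25-fold in FR2 compared to hnCD16 (log2 fold change 1.17 ± 0.0627 SE, edgeR adjusted p = 7.64e-12). In FR1 the difference from hnCD16 was 0.91 ± 0.0629 on the log2 scale (edgeR adjusted p = 3.14e-10), which is under the fold limit. FR1 was 0.26 lower than FR2, with a 95% interval of the difference from -0.39 to -0.13 (edgeR adjusted p = 0.00288). Compared to CTRL the log2 fold change of ZAP70 was 0.66 in FR1 and 0.92 in FR2. ZAP70 was the highest of the 9 genes in both FR1 and FR2. In FR1 its range overlapped that of FYN.

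SYK, the relative of ZAP70 that B cells and NK cells use, lies at chr9:90801787-90898549 on the plus strand and was close to absent everywhere. It had 14, 17 and 19 counts in CTRL and 13, 16 and 21 in hnCD16, against 6, 11 and 11 in FR1 and 5, 8 and 19 in FR2, or 0.10 to 0.41 TPM. SYK passed no test: its log2 fold change was -0.73 in FR1 compared to hnCD16, with a 95% interval from -1.59 to 0.12 (edgeR adjusted p = 0.108), and -0.57 in FR2, with an interval from -1.40 to 0.27 (edgeR adjusted p = 0.197). Without the FR2 library of 19 counts, replicate 3, the latter value was -1.28 (edgeR adjusted p = 0.00895), and -1.18 compared to CTRL (edgeR adjusted p = 0.0147). SYK made up 0.884% or less of the sum of ZAP70 and SYK in every library, and a difference of less than about 2-fold was not detectable at this depth.

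LAT, the membrane scaffold that ZAP70 phosphorylates, lies at chr16:28984826-28990784 on the plus strand. It was at 49.98, 49.8 and 51.1 TPM in CTRL and 36.0, 33.8 and 36.2 in hnCD16, against 23.5, 24.0 and 23.3 in FR1 and 29.5, 29.0 and 27.5 in FR2. The order CTRL, hnCD16, FR2, FR1 held without overlap, and among the genes that were measured well in every group LAT alone was lower in FR1 and FR2 than in both other groups. Its log2 fold change was -0.51 in FR1 and -0.25 in FR2 compared to hnCD16, and -0.87 and -0.62 compared to CTRL (edgeR adjusted p = 4.24e-07, 0.000827, 1.75e-10 and 1.66e-08). LAT was not called. With libraries scaled by total counts alone, the FR1 and CTRL difference was -1.07, which passes the fold limit (edgeR adjusted p = 2.23e-11), and under that scaling the median of all genes was -0.22 in place of -0.03.

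LCP2, the cytosolic adaptor that joins LAT to VAV1 and the phospholipases, lies at chr5:170246233-170297815 on the minus strand. It was at 19.2, 19.7 and 21.1 TPM in CTRL and 14.4, 15.1 and 16.0 in hnCD16, against 27.7, 26.5 and 28.6 in FR1 and 23.0, 22.8 and 22.6 in FR2. The groups did not overlap, and FR1 was highest, the opposite of ZAP70 and PLCG1, which were highest in FR2. Its log2 fold change compared to hnCD16 was 0.94 ± 0.0478 in FR1 and 0.65 ± 0.0483 in FR2 (edgeR adjusted p = 3.99e-12 and 8.02e-10), both under the fold limit.

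VAV1, the exchange factor for Rac, lies at chr19:6772708-6857366 on the plus strand. It was at 39.9, 42.7 and 39.2 TPM in CTRL and 28.7, 29.1 and 32.5 in hnCD16, against 35.5, 37.6 and 40.6 in FR1 and 40.5, 38.5 and 37.1 in FR2. CTRL, FR1 and FR2 overlapped, and hnCD16 was lower than the others. The log2 fold change compared to hnCD16 was 0.41 in FR1 and 0.43 in FR2 (edgeR adjusted p = 7.51e-06 and 4.04e-06), and 0.12 and 0.14 compared to CTRL (edgeR adjusted p = 0.0781 and 0.0419). The direction of the CTRL comparisons depended on the scale: by TPM the means were 40.6 ± 1.88 in CTRL, 37.9 ± 2.54 in FR1 and 38.7 ± 1.71 in FR2, and limma on log2 TPM gave -0.10 and -0.07. FR1 and FR2 differed by -0.02, with a 95% interval from -0.14 to 0.11.

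To ask what the fused signalling domains change, FR1 and FR2 were each compared to hnCD16. In FR1 3 of the 9 genes were called, FYN and PLCG2 higher and LCK lower, where 38.3% of all tested genes were called. In FR2 4 were called, the same 3 genes and ZAP70, where 39.5% of all tested genes were called. Both counts are near the background, so they do not set these genes apart from the rest of the transcriptome. Compared to CTRL, the same 3 genes were called in FR1 and in FR2, where the background was 38.0% and 38.2%. These comparisons share their hnCD16 or CTRL libraries. By adjusted p alone, 8 of the 9 genes differed between FR1 and hnCD16 (79.1% of all genes) and between FR2 and hnCD16 (80.1%), each time all but SYK. Compared to CTRL, 6 of the 9 differed by adjusted p alone in FR1 (79.9% of all genes) and 8 in FR2 (80.2%), where VAV1 is counted although its direction depended on the scale. PLCG1 is not among the 6 in FR1, although it passed there as lower with total counts and with limma on TPM. The median log2 fold change of the 9 genes was 0.41 in FR1 and 0.56 in FR2 compared to hnCD16, where the median of all genes was -0.01 and -0.03. All 9 genes passed the filter on low counts, LCK only through CTRL and hnCD16.

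**Figure D4:**
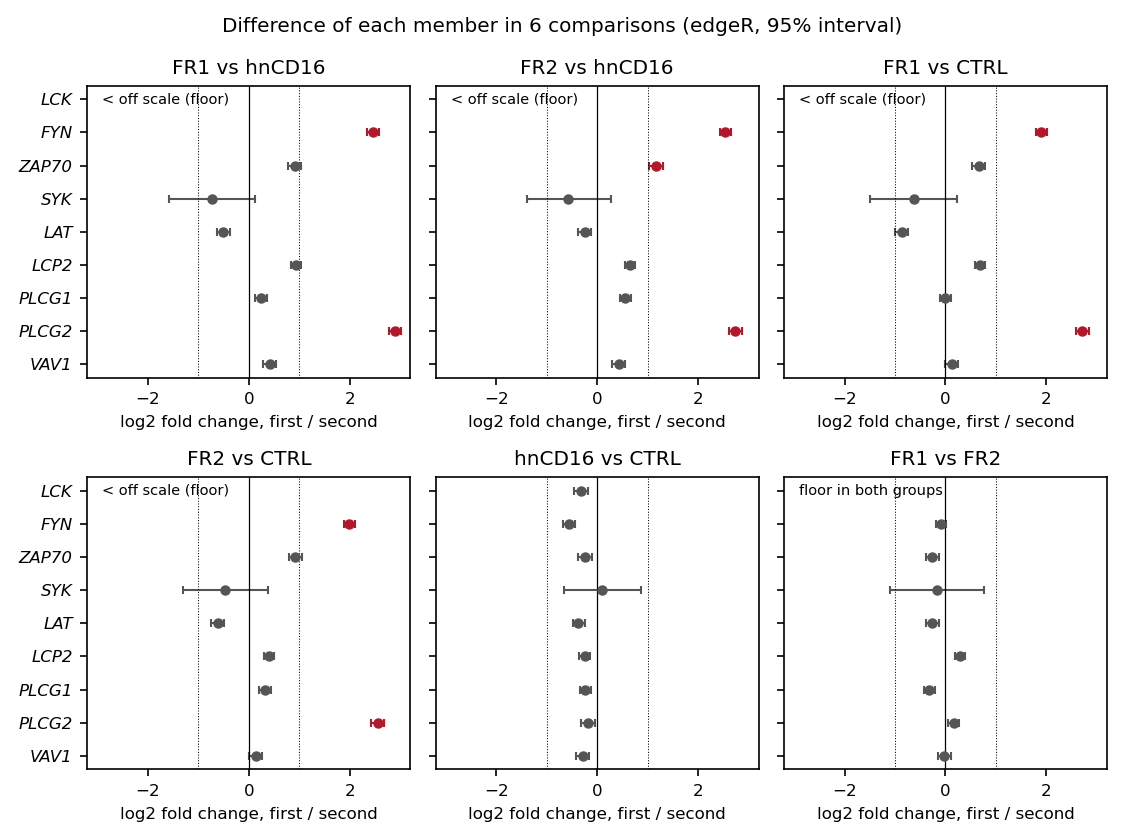
Log2 fold change of the 9 genes in 6 comparisons with 95% intervals from edgeR, first group over second. Red points are called, grey points are not, dotted lines mark a 2-fold difference, and LCK is left off the scale where FR1 or FR2 is at the counting limit. FYN and PLCG2 lie beyond 1 in each comparison of FR1 or FR2 with hnCD16 or CTRL, and in the 2 other panels every point lies between -1 and 1.

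To ask what CD16 with its own tail changes, hnCD16 was compared to CTRL. edgeR called 0 of the 9 genes, where 0.527% of all tested genes were called, and DESeq2 and limma also called 0. At an unadjusted p under 0.05, and equally by adjusted p alone, 8 of the 9 genes differed (43.0% of all genes). Each of these 8 was lower in hnCD16, a direction in which 21.4% of all tested genes passed. The log2 fold changes ranged from -0.18 for PLCG2 to -0.55 for FYN (edgeR adjusted p = 0.0357 and 1.15e-05), with a median over the 9 genes of -0.25 where the median of all genes was -0.01. A downward shift was not particular to the 9 genes: the median of the 86 other pathway genes described below was -0.15. By list, their medians ran from -0.3 for inhibitory genes to 0.15 for Tec family kinases. LAT was 0.37 lower (log2 fold change -0.37, edgeR adjusted p = 0.000106) and LCK 0.32 lower (log2 fold change -0.32, edgeR adjusted p = 0.000912). By edgeR after TMM scaling the difference was at most 1.47-fold, that of FYN. By TPM the FYN difference was larger, with means of 24.2 in CTRL and 14.8 in hnCD16. The direction held for these 8 genes under every scaling tried. Of the 72 genes called in all, 29 were higher and 43 lower, and scaling by total counts alone gave 23 higher and 76 lower.

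To ask what the 2B4 domain adds, FR1 was compared to FR2. edgeR called 0 of the 9 genes, where 1.93% of all tested genes were called, and DESeq2 and limma also called 0. At an unadjusted p under 0.05, and equally by adjusted p alone, 5 of the 9 differed (36.2% of all genes). LCP2 and PLCG2 were higher in FR1, by 0.29 and 0.16 on the log2 scale, with 95% intervals from 0.19 to 0.39 and from 0.05 to 0.27 (edgeR adjusted p = 0.000133 and 0.026). PLCG1, ZAP70 and LAT were lower in FR1, with log2 fold changes of -0.32, -0.26 and -0.26 (edgeR adjusted p = 0.000156, 0.00288 and 0.00305). The 2B4 domain and other differences between these sorted and expanded cell populations cannot be told apart here. The intervals for FYN and VAV1 were given above and keep within 0.19 of 0, whereas that of SYK runs from -1.10 to 0.77 and leaves a 2-fold difference possible.

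RefSeq promoter windows, 250 bases before to 50 bases after the gene start, were matched for all 9 genes (GRCh38.p14). Those of LCK, FYN and PLCG2 are shown because these genes were called in all 4 comparisons across the divide, LCK in one direction and the others in the opposite one. Capitals mark the ETS family core GGAAG and the RUNX family core TGNGGT on either strand, so that they also appear as the reverse complement, and no marked matches overlap. No binding was measured here, and these matches are descriptions of the letters.
LCK promoter, chr1:32251015-32251314, plus strand: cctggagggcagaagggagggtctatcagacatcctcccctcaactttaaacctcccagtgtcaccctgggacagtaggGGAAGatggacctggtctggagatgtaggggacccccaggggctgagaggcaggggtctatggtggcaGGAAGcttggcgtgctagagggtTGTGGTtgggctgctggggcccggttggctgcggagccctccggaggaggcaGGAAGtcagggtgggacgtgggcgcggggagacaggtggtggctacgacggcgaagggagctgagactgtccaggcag
FYN promoter, chr6:111873403-111873702, minus strand: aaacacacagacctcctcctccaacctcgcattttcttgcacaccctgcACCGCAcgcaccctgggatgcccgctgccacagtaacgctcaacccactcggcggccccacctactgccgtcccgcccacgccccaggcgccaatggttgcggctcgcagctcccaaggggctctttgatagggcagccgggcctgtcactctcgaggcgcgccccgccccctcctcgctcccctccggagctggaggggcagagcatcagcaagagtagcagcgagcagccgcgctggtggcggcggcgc
PLCG2 promoter, chr16:81738791-81739090, plus strand: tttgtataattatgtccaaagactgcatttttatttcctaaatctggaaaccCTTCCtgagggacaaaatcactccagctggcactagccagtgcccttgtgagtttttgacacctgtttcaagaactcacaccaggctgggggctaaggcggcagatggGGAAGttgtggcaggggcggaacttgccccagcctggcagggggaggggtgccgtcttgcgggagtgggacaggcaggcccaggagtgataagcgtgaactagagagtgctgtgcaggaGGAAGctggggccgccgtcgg

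The LCK window holds 3 ETS cores and 1 RUNX core, the FYN window 1 RUNX core and no ETS core, and the PLCG2 window 3 ETS cores and no RUNX core. Among 35116 windows of the same length, 71.9% hold the ETS core and 43.2% the RUNX core, so most of these matches are common. The FYN window also holds 2 SP family boxes (GGGCGG, in 45.0% of windows) and 1 TCF/LEF core (CTTTGA, in 12.9%). It has 26 CG pairs and 69.0% G and C, against 10 pairs and 64.3% for LCK and 8 pairs and 56.0% for PLCG2, where the median window has 14 pairs and 58.7%. The windows of ZAP70 and LCP2 also hold 3 ETS cores each, and that of VAV1 holds 4. Whether these matches bear on the levels was not tested. The RefSeq start of PLCG2 lies upstream of the GENCODE v44 start given above, and which start the cells use was not tested.

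The wider antigen receptor pathway was described by 93 other genes in 7 lists, of which 92 were in the table and 86 were tested. Of these, 54 were called in FR1 compared to hnCD16, 20 higher and 34 lower, which is 62.8% where the background was 38.3%. The lists were chosen with earlier results of these data known, so their shares are descriptions and no test of enrichment. Of these 54, 19 had fewer than 10 counts in every library of the group where they were lower and so passed the filter on low counts only through other groups, which made a call likely. The same held for 1814 of the 5234 genes called in all (34.7%, against 35.2% of the pathway calls). In FR2 compared to hnCD16, 52 were called, 21 higher and 31 lower (60.5%, background 39.5%), 19 of them with fewer than 10 counts throughout the lower group. Compared to CTRL, 52 were called in FR1 and 48 in FR2 (60.5% and 55.8%, background 38.0% and 38.2%). In hnCD16 compared to CTRL, edgeR called 0 of the 86 (background 0.527%), with 51 at an unadjusted p under 0.05, and DESeq2 and limma called 0. By adjusted p alone 44 of the 86 differed there, where 43.0% of all genes did. In FR1 compared to FR2, 3 were called (3.49%, background 1.93%). The genes named next are those with the largest log2 fold changes in FR1 compared to hnCD16 within each list, and their levels are given for hnCD16, FR1 and FR2 in that order.

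**Figure D5:**
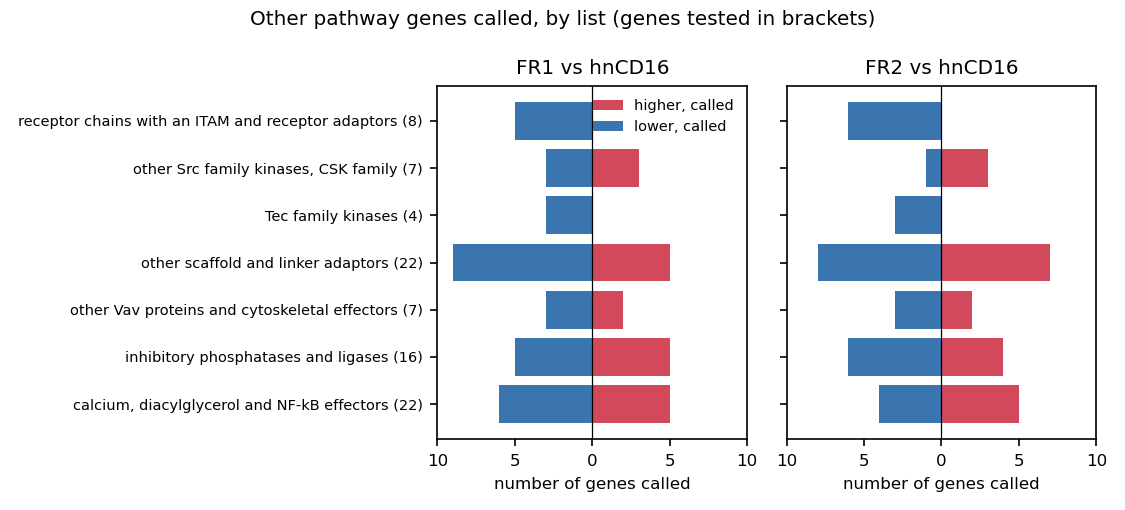
Number of other pathway genes called higher (right, red) and lower (left, blue) in FR1 and in FR2 compared to hnCD16, for 7 lists with the genes tested in brackets. Receptor chains and Tec family kinases extend only to the left, and the other lists extend to both sides.

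Among receptor chains with an ITAM and their adaptors, 5 of 8 were called in FR1 and 6 of 8 in FR2 compared to hnCD16, each of them lower. CD3D, a chain of the T cell receptor complex, had 9218 to 9903 counts in hnCD16 and at most 3 in FR1 and FR2, which is at least 3013-fold and at least 3067-fold lower. CD3G fell from 138 ± 4.21 CPM to 1.44 ± 1.01 and 1.49 ± 0.182. CD79B, a chain of the B cell receptor, was at least 27.3-fold and at least 27.7-fold lower. CD247, which encodes CD3ζ, and HCST, which encodes DAP10, are the genes whose sequence FR1 and FR2 carry, and reads from construct and genome cannot be told apart in their counts. CD247 was at 82.0 ± 3.17, 104 ± 1.71 and 119.6 ± 1.20 CPM in hnCD16, FR1 and FR2, and HCST at 10 ± 0.657, 16.6 ± 0.308 and 18.4 ± 0.762, and neither was called.

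Other members of the Src family and their regulators moved in both directions, 3 of 7 higher and 3 lower in FR1, and 3 higher and 1 lower in FR2. FGR rose from 0.198 ± 0.113 CPM with hnCD16 to 26.5 ± 1.36 with FR1 and 12.5 ± 1.03 with FR2, and was also one of the 3 pathway genes called between FR1 and FR2 (log2 fold change 1.08, edgeR adjusted p = 2.36e-07). LYN rose from 3.45 ± 0.110 CPM to 78.2 ± 0.327 and 77.5 ± 4.14. FYN was therefore not the only Src family kinase that was higher in FR1 and FR2. PTPRC, the phosphatase CD45 that removes an inhibitory phosphate from Src family kinases, rose from 198 ± 29.5 CPM to 1335 ± 21.1 and 1088 ± 43.9. PAG1, which anchors the inhibitory kinase CSK at the membrane, fell from 196 ± 2.60 CPM to 10.4 ± 0.768 and 19.1 ± 0.951. LIME1 and YES1 fell in FR1, with log2 fold changes of -1.10 and -1.03.

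Of the Tec family kinases, which activate phospholipase C downstream of the scaffolds, 3 of 4 fell in FR1 and in FR2. BMX had 80 to 98 counts in hnCD16 and 0 in every FR1 and FR2 library, at least 26.9-fold and at least 27.4-fold lower. TEC fell from 13.9 ± 2.35 CPM to 0.615 ± 0.137 and 1.15 ± 0.181, and TXK from 7.57 ± 1.14 to 2.97 ± 0.280 and 3.69 ± 0.916.

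Scaffold and linker adaptors other than LAT and LCP2 were called in both directions, 5 of 22 higher and 9 lower in FR1, 7 higher and 8 lower in FR2. GRAP2 (Gads), which links LAT to LCP2, had 629 to 647 counts in hnCD16 and at most 1 in any FR1 or FR2 library, at least 198-fold and at least 202-fold lower. TRAT1 and SIT1, membrane adaptors of T cells, were at least 553-fold and at least 409-fold lower in FR1. FYB1 (ADAP), a partner of LCP2, rose from 4.57 ± 0.430 CPM to 135 ± 3.04 and 122 ± 2.68. CLNK, an adaptor related to LCP2, rose from 0.323 ± 0.05 CPM to 20.1 ± 1.20 and 15.8 ± 1.59, and SH2D2A, an adaptor that binds LCK, from 4.24 ± 0.904 to 87.0 ± 3.92 and 73.6 ± 4.09.

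VAV2 and VAV3, the relatives of VAV1, fell where VAV1 was not called. VAV3 went from 147 ± 5.34 CPM to 23.1 ± 1.27 and 32.1 ± 3.99, and VAV2 was at least 27.6-fold and at least 28.1-fold lower. ARHGEF6, another exchange factor, fell from 516 ± 17.6 CPM to 9.65 ± 0.899 and 6.40 ± 1.06. RAC2, a Rac GTPase of blood cells, rose from 64.2 ± 4.21 CPM to 216 ± 15.3 and 228 ± 8.25, and CORO1A, an actin regulator, from 88.1 ± 3.22 to 267 ± 12.1 and 249.5 ± 12.2. This list had 2 of 7 genes called higher and 3 lower in both FR1 and FR2.

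Inhibitory phosphatases, ligases and adaptors were called 5 higher and 5 lower of 16 in FR1, and 4 higher and 6 lower in FR2. PTPRJ (CD148), a receptor phosphatase, had at most 1 count in any library of hnCD16, and its level was at least 342-fold and at least 343-fold higher in FR1 and FR2. PTPN22, which dephosphorylates LCK and ZAP70, rose 1.92 and 1.83 on the log2 scale, and DGKZ, which removes diacylglycerol, rose 1.46 and 1.54. UBASH3B and UBASH3A, phosphatase family proteins that restrain ZAP70 and SYK signalling, were at least 261-fold and at least 30.2-fold lower in FR1, and DOK2, an inhibitory adaptor, was at least 41.5-fold lower.

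Downstream of the phospholipases, 5 of 22 calcium, diacylglycerol and NF-κB effectors were called higher and 6 lower in FR1, and 5 higher and 4 lower in FR2. ITPR1, the receptor through which the PLCG products release calcium, rose from 13 ± 0.496 CPM to 116 ± 2.50 and 80.1 ± 4.12. MAP4K1 (HPK1), a kinase that restrains LCP2, rose from 28.2 ± 1.43 CPM to 152 ± 10.8 and 156 ± 3.56, and PRKCD from 0.360 ± 0.116 to 4.16 ± 0.866 and 5.04 ± 0.150. PRKCB, a protein kinase C, was at least 462-fold and at least 471-fold lower in FR1 and FR2. RASGRP2, an activator of Rap1, fell from 71.0 ± 0.461 CPM to 1.23 ± 0.119 and 3.34 ± 0.209, and NFATC1 was at least 14.5-fold and at least 14.8-fold lower. RASGRP2 was also called between FR1 and FR2 (log2 fold change -1.44, edgeR adjusted p = 4.55e-06), as was THEMIS, an adaptor of T cell development, which is named because so few genes were called there (log2 fold change 1.57, edgeR adjusted p = 2.46e-06).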

How the data were processed

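RNA was sequenced from 12 libraries labelled as YT cells in 4 groups of 3, named by the sample labels. The study's methods give 3 independent experiments for in vitro data in general, but no source used here says that each library came from a culture of its own, so p-values may measure only the spread between these libraries, which may be technical. The authors depleted ribosomal RNA (the labels also name oligo(dT) beads), trimmed reads with SOAPnuke, mapped them with HISAT2 2.1.0 to GRCh38.p13 and estimated counts with RSEM 1.3.1. The submitters' processing notes also name Bowtie2 2.3.4.3 and DESeq2 1.4.5. The deposited expected counts are not normalized, and the deposited TPM values come from the same estimates. Strand and the treatment of reads shared between genes are not given in the sources used here. Of the deposited value columns, 40 per table were not used: they hold FPKM, normalized read counts and group means.

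Expected counts were rounded and tested in 1 fit of 4 groups with edgeR 4.0.16 (R 4.3.3), quasi-likelihood test, TMM scaling and filterByExpr, with Benjamini-Hochberg adjustment over 13657 genes in each of 6 comparisons. The thresholds are those of the study, which used DESeq2. CPM are scaled by TMM. Values are mean ± SD of 3 libraries unless marked SE. The counting limit is 3 counts per library, and limits cover counting error only. Ratios and transcript shares used two-sided exact permutation tests, with 0.1 TPM added for ratios. Library pairs within a group differed by more than sampling noise (chi-square per gene 2.058 to 12.304). On counts simulated for FR1 compared to hnCD16, over 12984 genes, edgeR called 99 of 100 genes changed by 2 on the log2 scale, 100 of 100 changed by 1.5, and 1 unchanged gene. All simulated libraries were drawn from the CTRL means with the same spread setting for every gene, and only these genes were changed. In the real comparison 38.3% of tested genes were called, so these counts are no error rates of the real fit.

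The 9 genes and all gene lists were chosen with earlier results of these data known. All 9 are named throughout. From each pathway list up to 3 called genes with the highest and 3 with the lowest log2 fold change in FR1 compared to hnCD16 and a mean of at least 1 CPM are named, with CD247 and HCST. For each of the 9, the gene of at least 10 CPM with the most alike pattern over the 12 libraries is also named; that for FYN is not reported here, and 8 are given. Coordinates are from GENCODE v44, promoter sequences from RefSeq. Figures used matplotlib 3.10.9. Alternatives were limma 3.58.1 on log2 TPM with 1 or 0.1 added, DESeq2 1.42.0, other scalings and filters, fits of 2 groups, a replicate block, no fold limit, and leaving out each library.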

Additional observations from a re-analysis of the deposited data

How the results depend on the processing

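Without a fold limit the number of the 9 genes called was 8 and 8 in FR1 and FR2 compared to hnCD16, 6 and 8 compared to CTRL, 8 in hnCD16 compared to CTRL and 5 in FR1 compared to FR2, and that of the 86 pathway genes was 44 and 36 in the last 2 comparisons. Of all genes tested, 79.1%, 80.1%, 79.9%, 80.2%, 43.0% and 36.2% passed in the same order. With limma on log2(TPM + 1), 1 pathway gene was called in FR1 compared to FR2, and 1 without CTRL replicate 3 in hnCD16 compared to CTRL, where leaving out a library otherwise gave 0 (range 0 to 1). The fold changes of the 9 genes kept their direction and call in 780 of the alternative fits, reversed in 23 and newly passed the limits in 5, those of LAT and SYK; their causes were not tested. LAT in FR1 compared to CTRL was -1.07 with total counts, -1.06 with limma on log2(TPM + 1) and -1.09 on log2(TPM + 0.1).

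The reversals were of differences that passed neither limit or came from few counts, except VAV1 in FR2 compared to CTRL, which passed by adjusted p alone. PLCG1 in FR1 compared to CTRL was -0.00 with RLE scaling, DESeq2 and both other filters, -0.19 with total counts, -0.21 and -0.22 with limma, and -0.04 to 0.02 with a library left out. The PLCG1 values with total counts and with limma passed by adjusted p alone. VAV1 was -0.07 with total counts and -0.10 with limma on either scale in FR1, and -0.07 with limma on either scale in FR2. SYK in hnCD16 compared to CTRL was -0.01 with total counts, -0.02 and -0.08 with limma, and -0.09 to 0.24 with a library left out. In FR1 compared to FR2, leaving out a library gave -0.53 to 0.55 for SYK and -1.02 to 0.34 for LCK, which is under the counting limit. The log2 ratio of FYN to LCK between FR1 and FR2 was -0.07 with 1 TPM added and -0.15 to 0.26 with a library left out, that of SYK to ZAP70 was -0.00 to 0.60, and that of PLCG2 to PLCG1 in hnCD16 compared to CTRL was -0.01 to 0.16.

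Deviations of same-numbered libraries correlated at 0.338, 0.02 and 0.404 in hnCD16 compared to CTRL, a mean of 0.254. In the other comparisons the means were -0.035 to 0.087. No pairing was assumed in the main fit, and whether same-numbered hnCD16 and CTRL libraries share a batch was not tested. With the replicate block, 3, 4, 3, 3, 0 and 0 of the 9 genes were called in the order of comparisons above, as without it, and no call changed. These calls include the fold limit, and counts by adjusted p alone are not given for that fit. With total counts the median of all genes was -0.22, -0.17 and -0.12 in FR1, FR2 and hnCD16 compared to CTRL, against -0.03, -0.04 and -0.01 with TMM. Depth limits LCK in FR1 and FR2 and SYK everywhere.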

Other observations

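For 8 of the 9 genes, the gene with the most alike pattern was taken as the one with the smallest root mean square difference of centred log2 CPM over the 12 libraries, among 9078 genes of at least 10 CPM. This is a description over libraries that form 2 separate sets, and it says nothing of shared function. LCK was most like JADE3, at 0.212, which had 75.1 and 69.3 CPM in CTRL and hnCD16 and 0.0383 and 0.0752 in FR1 and FR2. PLCG2 was most like TIMM22, at 0.1, with 17.3 and 16.7 CPM against 109 and 110.1.

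The genes with smaller differences had closer counterparts. LAT was most like CNPPD1, at 0.036, and ZAP70 was most like PNPLA6, at 0.049. PLCG1 and VAV1 were both at 0.051 from their nearest genes, DNM2 and ANAPC2, and LCP2 was at 0.053 from SLC7A6. SYK, with the fewest counts, was at 0.271 from SERF1A.

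ZAP70 counts are given by transcript as values only, since no transcript comparison passed adjustment (exact permutation, smallest adjusted p = 0.297). Its transcript NM_001378594 had 0 counts in all CTRL libraries, and held 2.66% ± 4.60 of ZAP70 counts in hnCD16, 16.6% ± 5.67 in FR1 and 12.7% ± 3.26 in FR2. NM_001079, the transcript with the largest share in each group, held 58.8% ± 5.47, 52.1% ± 2.94, 38.2% ± 11.8 and 49.4% ± 2.34 in CTRL, hnCD16, FR1 and FR2.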
